A study of Mus musculus with 4 samples.

Results

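The S phase and DNA replication genes described here are 39 protein-coding genes of the mouse that build, load and run the DNA replication machinery or switch it on, taken by gene symbol from the 32285 genes of the count matrices. All 39 symbols were found once in each of the 4 matrices. Each matrix is 1 droplet single-cell RNA library of bone marrow cells sorted as LSK (lineage-negative, Sca-1-positive, Kit-positive), a sort that keeps blood stem cells with their earliest descendants, and each library pooled the marrow of 5 mice aged 8 to 12 weeks. All mice carried Vav1-iCre, a recombinase active throughout blood-forming cells: the control mice were Vav1-iCre/+ with no other mutant allele, the Ikk2-CA mice were Vav1-iCre/+, Ikk2-CA flox/+, the Jak2 V617F mice were Vav1-iCre/+, Jak2 V617F flox/+, and the double mutant mice carried both floxed alleles with Vav1-iCre/+. Ikk2-CA encodes an IκB kinase that is always on and so drives NF-κB, expressed from the R26StopFLikk2ca allele, and Jak2 V617F is the activated cytokine receptor kinase of myeloproliferative disease. The series' design text also names a cross to an NF-κB reporter mouse, which the sample labels do not list. Because Vav1-iCre acts in all blood cells and the marrow of 5 mice was pooled, effects within a stem cell and through its neighbours cannot be told apart, and there is no spread between mice.

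Replication is prepared in G1, when the origin recognition complex, Cdc6 and Cdt1 load the Mcm2-7 helicase onto chromatin. At the start of S phase Mcm10, Cdc45 and the GINS complex turn that helicase on, after which the polymerases, the Pcna clamp and its loader copy the strands while ribonucleotide reductase and thymidylate synthase supply the nucleotides. Cyclin E and the E2F transcription factors drive this step, and many of the genes listed are E2F targets. In marrow, most long-term stem cells rest outside the cycle, whereas committed progenitors divide often, so the level of these genes in an LSK sample mixes resting and dividing cells.

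After the cell filter, 8055 control, 9865 Ikk2-CA, 14156 Jak2 V617F and 5268 double mutant cells remained. Depth differed between libraries: the median cell held 10606 unique molecular identifiers (UMIs, 1 per captured RNA molecule) in the control library, 17726 in Ikk2-CA, 11106.5 in Jak2 V617F and 24915 in the double mutant. The filter kept 81.0% of control barcodes, and between 90.6% and 95.5% in the others. Between 12 and 60 cell barcodes were shared by any pair of libraries, at most 0.608% of the smaller library. The libraries also differed in sex makeup: 14109 of the 14156 Jak2 V617F cells had no UMI of Xist, the RNA of the inactive X chromosome, against 3505 of the 8055 control cells. The sort genes Kit (87.4 to 171.1 CPM) and Ly6a, which encodes Sca-1 (105.8 to 232.9 CPM), were present in all 4 libraries, and the T cell gene Cd3e stood at or under 0.0995 CPM. With 1 library per genotype no difference between genotypes could be tested. Every interval below is at 95% and covers counting error only, so an interval that leaves out 1 describes a pair of libraries and not the genotypes.

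The replication genes were present at similar levels in all 4 genotypes. Levels are CPM, the UMIs of a gene summed over the kept cells and scaled to a common library total, which is not corrected for how well each transcript is captured. Summed over the 39 genes the level was 3172 CPM (95% Poisson interval 3161 to 3183) in control, 3272 CPM (3264 to 3280) in Ikk2-CA, 3323 CPM (3314 to 3331) in Jak2 V617F and 3430 CPM (3420 to 3439) in the double mutant. Control was thus the lowest and the double mutant the highest, with no overlap of the counting intervals. For 36 of 39 genes the highest library lay less than 1.5-fold above the lowest, and the median span was 1.21-fold (1.08 to 1.74). The double mutant library was the highest for 16 genes, Jak2 V617F for 15, Ikk2-CA for 8 and control for 0, while control was the lowest for 19. These spans and ranks were not counted over all genes. They rest on library totals, with which the median gene lay below control in both libraries with the Ikk2-CA allele.

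**Figure D1:**
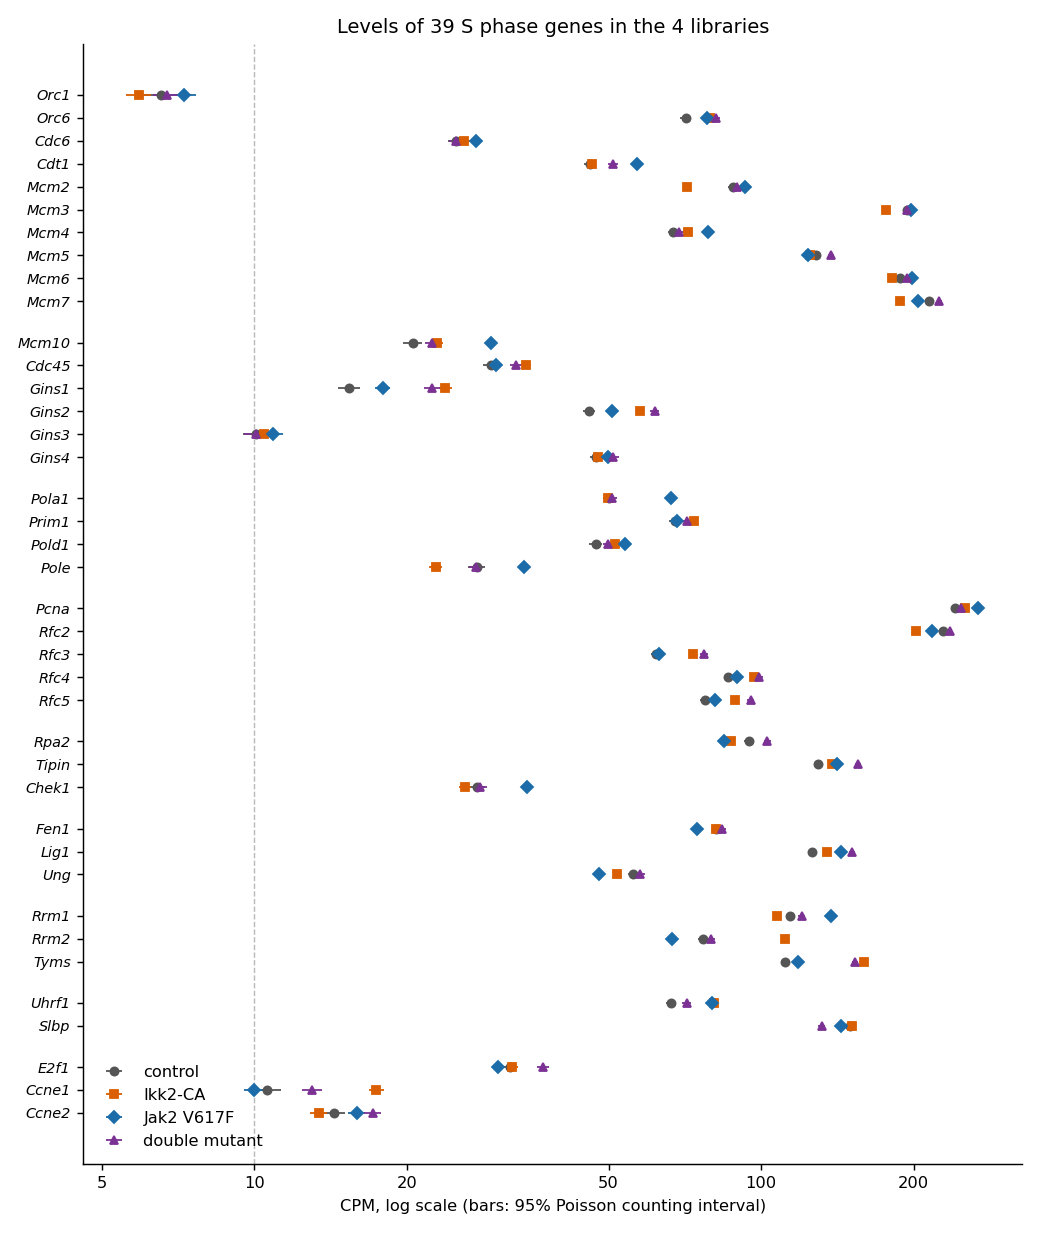
Level of each of the 39 genes in the 4 libraries, in CPM on a log axis, grouped by role from origin licensing at the top to G1/S control at the bottom, with 95% Poisson counting intervals as bars and a dashed line at 10 CPM. For most genes the 4 symbols lie close together. Ccne1, Gins1 and Rrm2 are the genes whose highest library lies over 1.5-fold above the lowest.

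Of the 39 genes, 38 reached 10 CPM in either library of each comparison, and Orc1 reached it in none. Ccne1 and Gins1 stood at least 1.5-fold higher in Ikk2-CA than in control, which is 2 of 38 genes, where 4% of all 8377 genes compared did so. No replication gene was 1.5-fold lower in Ikk2-CA (16.7% of all genes were). In Jak2 V617F over control 0 of 38 were 1.5-fold higher (1.02% of all genes) and 0 lower (1.37%). The double mutant over control also gave 0 higher (2.24%) and 0 lower (15.9%), and so did the double mutant over Ikk2-CA (1.68% higher and 4.19% lower in the background) and over Jak2 V617F (1.65% and 14.9%).

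The ratios of the group were read against those of all genes. The median gene stood at a log2 ratio of -0.23 in Ikk2-CA over control, -0.24 in the double mutant over control and -0.21 in the double mutant over Jak2 V617F. The median replication gene stood at 0.05 in Ikk2-CA over control, with 24 of 38 above 0 (26.5% of all genes). It stood at 0.08 in Jak2 V617F over control, with 28 of 38 above 0 (49.1% of all genes), and at 0.09 in the double mutant over control, with 35 of 38 above 0 (26.9% of all genes). These comparisons share the control library. Taken relative to the median gene, the replication genes lay at 0.28 in Ikk2-CA, 0.09 in Jak2 V617F and 0.33 in the double mutant, and 36, 28 and 38 of 38 lay above the median gene, which 50% of all genes do. For the double mutant the median was 0.08 over Ikk2-CA (24 of 38 above 0, 54.7% of all genes) and 0.07 over Jak2 V617F (22 of 38, 29% of all genes).

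The genes of origin licensing spanned 1.09-fold (Cdc6) to 1.30-fold (Mcm2) between the libraries. Orc1, the ATPase of the origin recognition complex, measured 6.56 CPM in control, 5.92 in Ikk2-CA, 7.28 in Jak2 V617F and 6.74 in the double mutant. Orc6, another subunit, measured 70.9, 79.2, 78.1 and 81.5 CPM in the same order. Cdc6, which loads the helicase, measured 25.03, 25.9, 27.4 and 25.03 CPM. Of these, Orc1 spanned 1.23-fold with Ikk2-CA the lowest, and Orc6 1.15-fold with control the lowest. Cdt1, the loading partner of Cdc6, measured 45.9 CPM in control, 46.3 in Ikk2-CA, 56.9 in Jak2 V617F and 51.0 in the double mutant, a ratio of 1.24 (1.20 to 1.28) for Jak2 V617F over control. Mcm2, a helicase subunit, measured 87.9, 71.4, 92.8 and 89.5 CPM and was lowest in Ikk2-CA (ratio to control 0.812, 0.791 to 0.834). The subunit Mcm7 measured 214.2, 187.7, 203.5 and 224.7 CPM, again with Ikk2-CA the lowest. Mcm3 (175.9 to 197.8 CPM), Mcm4 (67.0 to 78.4 CPM), Mcm5 (123.8 to 137.2 CPM) and Mcm6 (181.5 to 198.5 CPM) spanned narrow ranges. Relative to the median gene, 8 of the 9 licensing genes measured in Ikk2-CA over control were higher, as 50% of all genes are. A ratio above 1 was found for 4 of the 9, against 26.5% of all genes.

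Promoter sequences are shown because E2F motifs were more frequent in this group than among all genes, a feature independent of the counts. RefSeq promoters of GRCm38.p6, from 250 bases before to 50 after the annotated start, were at hand for 31 of the 39 genes. An E2F motif, any of TTTGGCGC, TTTCCCGC, TTTCGCGC or TTTGCCGC on either strand, was found in 13 of the 31 (41.9%), against 704 of 27025 genes of the table (2.61%). The motif was also in 11 of 40 promoters of the further replication genes described below (27.5%). It was in 9 of 15 promoters of the replication-coupled repair and E2F family genes (60%), so it was not particular to this group. The motifs TTTGGCGC and TTTCGCGC can overlap on opposite strands, as they do in Mcm5 and Mcm6. The 13 genes were Cdc6, Cdt1, Gins3, Lig1, Mcm3, Mcm5, Mcm6, Mcm7, Orc1, Pola1, Pold1, Rfc3 and Uhrf1. For the 3 genes below the 250 bases before the start are printed in the direction of transcription, with the E2F motifs in capitals. They lie at chr8:75109259-75109508 on the plus strand (Mcm5), chr1:128359706-128359955 on the minus strand (Mcm6) and chrX:93632156-93632405 on the minus strand (Pola1), in each case outside the GENCODE gene model.
Mcm5: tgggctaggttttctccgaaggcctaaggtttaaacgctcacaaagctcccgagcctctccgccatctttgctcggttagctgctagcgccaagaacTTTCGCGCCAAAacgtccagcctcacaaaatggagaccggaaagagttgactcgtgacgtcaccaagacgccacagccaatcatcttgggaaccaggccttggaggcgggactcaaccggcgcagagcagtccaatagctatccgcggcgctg
Mcm6: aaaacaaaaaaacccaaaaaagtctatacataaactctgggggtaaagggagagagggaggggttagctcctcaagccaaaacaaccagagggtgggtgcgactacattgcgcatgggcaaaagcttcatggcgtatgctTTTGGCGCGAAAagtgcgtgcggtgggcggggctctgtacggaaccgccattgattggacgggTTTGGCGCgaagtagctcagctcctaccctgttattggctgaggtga
Pola1: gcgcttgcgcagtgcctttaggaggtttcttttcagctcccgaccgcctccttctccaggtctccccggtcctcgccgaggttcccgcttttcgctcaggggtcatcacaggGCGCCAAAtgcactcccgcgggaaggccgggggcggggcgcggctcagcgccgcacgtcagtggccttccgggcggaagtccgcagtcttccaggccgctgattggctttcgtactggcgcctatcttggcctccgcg
In Mcm5 the overlapping motifs begin 153 and 149 bases before the start, in Mcm6 110, 106 and 47 bases before it, and in Pola1 138 bases before it. By contrast, the CHR element of G2 and M phase promoters (TTTGAA or TTCGAA, either strand) was in 6 of the 31 replication promoters (19.4%), near the 21.7% of all genes in the table, and in 17 of 21 promoters of G2 and M phase genes (81.0%), of which 1 held an E2F motif (4.76%). A match describes the letters of the window only.

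The genes of helicase activation differed in which library was high. Gins1, a GINS subunit, measured 15.4 CPM in control, 23.8 in Ikk2-CA, 17.9 in Jak2 V617F and 22.4 in the double mutant. Its ratio to control was 1.55 (1.46 to 1.64) in Ikk2-CA and 1.46 (1.37 to 1.55) in the double mutant, so both libraries with the Ikk2-CA allele lay above both without it. Gins2, another subunit, measured 45.8, 57.7, 50.8 and 61.6 CPM, again higher in the libraries with the Ikk2-CA allele. Mcm10, which helps Cdc45 and GINS activate the helicase, measured 20.5 CPM in control, 22.9 in Ikk2-CA, 29.4 in Jak2 V617F and 22.4 in the double mutant. With library totals Jak2 V617F was the highest, at 1.43 times control (1.36 to 1.504), and the double mutant stood at 0.765 times Jak2 V617F (0.732 to 0.799). The distance of the others from control depended on the scaling. With TMM factors, described below, the log2 ratio of Mcm10 was 0.40 in Ikk2-CA over control (0.16 with library totals). It was -0.14 in the double mutant over Jak2 V617F (-0.39 with library totals). Cdc45 (29.3 to 34.4 CPM), Gins3 (10.1 to 10.9 CPM) and Gins4 (47.2 to 51.1 CPM) spanned less.

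Among the polymerases, Pola1 and Pole were highest in Jak2 V617F, as Mcm10 was. Pola1, the catalytic subunit of the primase-bound polymerase alpha, measured 50.02 CPM in control, 49.8 in Ikk2-CA, 66.3 in Jak2 V617F and 50.8 in the double mutant. Pole, the leading strand polymerase, measured 27.5, 22.8, 34.0 and 27.4 CPM. Their ratios of Jak2 V617F to control were 1.33 (1.28 to 1.37) and 1.24 (1.19 to 1.30), while the double mutant lay at the control level. Pola1 is X-linked and the sex makeup of the libraries differed: among cells without an Xist UMI its log2 ratio for Jak2 V617F over control was 0.34, against 0.41 in all cells. Prim1, the primase, spanned 67.5 to 73.8 CPM and Pold1, the lagging strand polymerase, 47.1 to 53.8 CPM.

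The clamp loader was highest in the double mutant. Rfc3 measured 62.0 CPM in control, 73.4 in Ikk2-CA, 63.0 in Jak2 V617F and 77.2 in the double mutant, and Rfc5 measured 77.5, 88.9, 81.2 and 95.4 CPM. Rfc4 (86.1 to 99.1 CPM) had the same order of libraries, so 3 of the 4 loader genes were higher with the Ikk2-CA allele, alone or with Jak2 V617F. Rfc2 did the opposite in Ikk2-CA, with 228.0, 201.7, 217.5 and 235.6 CPM. Pcna, the sliding clamp itself, measured 240.8, 252.8, 267.5 and 248.3 CPM and was highest in Jak2 V617F. Near-identical Pcna and Tyms pseudogenes exist in the GENCODE annotation, so the counts of these 2 genes are uncertain to the extent that reads were shared.

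Nucleotide supply held 2 of the 4 highest ratios of Ikk2-CA over control. Rrm2, the S-phase-limited subunit of ribonucleotide reductase, measured 76.8 CPM in control, 111.7 in Ikk2-CA, 66.6 in Jak2 V617F and 79.5 in the double mutant. Tyms, thymidylate synthase, measured 111.5, 159.5, 118.1 and 153.3 CPM. Both were high in Ikk2-CA, at 1.45 (1.42 to 1.49) and 1.43 (1.40 to 1.46) times control, but in the double mutant Tyms stayed at 1.38 (1.34 to 1.41) while Rrm2 was at 1.04 (1.01 to 1.07). Rrm1, the large reductase subunit, had another order, with 114.1 CPM in control, 107.7 in Ikk2-CA, 137.2 in Jak2 V617F and 120.1 in the double mutant. The 2 reductase subunits therefore had opposite highest libraries. When each marker gate described below was weighted by its share of control cells, the log2 ratio of Ikk2-CA over control was -0.07 for Rrm2 (0.54 unweighted), 0.13 for Tyms (0.52), 0.18 for Ccne1 (0.71) and 0.41 for Gins1 (0.63), so that Rrm2 changed direction.

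Of the G1/S regulators, Ccne1, cyclin E1, measured 10.6 CPM in control, 17.4 in Ikk2-CA, 9.996 in Jak2 V617F and 13.002 in the double mutant, and its ratio of Ikk2-CA over control, 1.64 (1.53 to 1.76), was the highest of the group. Ccne2, cyclin E2, measured 14.4, 13.4, 15.9 and 17.1 CPM, with Ikk2-CA the lowest, so the 2 cyclins E did not move together. E2f1, an activating E2F factor, was highest in the double mutant, at 31.9, 32.3, 30.2 and 37.2 CPM. In fork protection, Rpa2, a subunit of the single-strand binding protein RPA, measured 94.6 CPM in control, 87.2 in Ikk2-CA, 84.3 in Jak2 V617F and 102.9 in the double mutant, and was thus lower in each single mutant and higher in the double. Chek1, the replication checkpoint kinase, followed Pola1 with 27.5, 26.0, 34.6 and 27.9 CPM, and Tipin, of the fork protection complex, spanned 129.3 to 155.0 CPM. Ung, which removes uracil from DNA, measured 56.0, 52.0, 47.9 and 57.7 CPM, and Fen1 (74.8 to 83.8 CPM) and Lig1 (126.0 to 151.2 CPM), which join lagging strand fragments, spanned little. Uhrf1, the partner of the maintenance methyltransferase, measured 66.4 CPM in control, 80.7 in Ikk2-CA, 80.1 in Jak2 V617F and 71.3 in the double mutant: higher in each single mutant than in the double. Slbp, the histone mRNA binding protein, was lowest in the double mutant with library totals, at 149.5, 150.8, 143.6 and 131.5 CPM. Its log2 ratio of the double mutant over control was -0.18, above the -0.24 of the median gene.

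Several of these patterns do not add up across the 2 alleles. A gene's departure from additivity is how far its log2 level in the double mutant lies from the sum of both single-mutant effects, and its median over the replication genes was -0.06 (0.02 for all genes). It was most negative for Mcm10 (-0.55), Uhrf1 (-0.45) and Pola1 (-0.38). In CPM, Mcm10 and Pola1 were highest in Jak2 V617F, and Uhrf1 was higher in each single mutant than in the double. The departure was most positive for Rpa2 (0.40), Ung (0.38) and Mcm7 (0.33), whose levels were lower in each single mutant than in control and highest in the double. With TMM factors Rpa2 and Ung stood above control in Ikk2-CA (log2 ratios of 0.13 and 0.14, against -0.12 and -0.11 with library totals). Mcm7 also stood above control there with these factors, so the direction of Rpa2, Ung and Mcm7 in that library depended on the scaling. With 1 library in each cell of the design this interaction has no error and was not tested.

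Other genes of the pathway stood near the same levels. Of 46 further replication genes, 44 reached 10 CPM in Ikk2-CA or control, with a median log2 ratio of 0.03. Of the 44, 0 were 1.5-fold higher (4% of all genes) and 0 lower (16.7%). Among them, the histone chaperone Asf1b measured 51.3 CPM in Ikk2-CA against 35.3 in control, and Tk1, thymidine kinase, 80.4 against 57.1. In the double mutant over control 3 of 44 were 1.5-fold higher (2.24% of all genes). They were Hells, a chromatin remodeller of dividing cells (115.4 against 74.1 CPM), Tk1 (87.6 against 57.1 CPM) and Dctpp1, a nucleotide-pool cleaner (339.8 against 223.6 CPM). The 1 gene of 44 lower there was Mcm9 (11.4 against 17.7 CPM), where 15.9% of all genes were lower. In the double mutant over Ikk2-CA 0 of 43 were 1.5-fold higher (1.68% of all genes) and 2 were lower (4.19%). The 2 were Asf1b (29.7 against 51.3 CPM) and Dck (23.2 against 38.9 CPM). Of the 23 genes of replication-coupled repair and the E2F family, E2f3 was 1.58-fold higher in Jak2 V617F than in control (36.5 against 23.1 CPM), and Rbl2, which encodes the quiescence protein p130, was lower in Ikk2-CA (16.2 CPM) and in the double mutant (14.5 CPM) than in control (27.0 CPM). E2f2 stood at 9.58 CPM in control, 14.8 in Ikk2-CA and 5.57 in the double mutant. Over control this list had median log2 ratios of -0.03 in Ikk2-CA, 0.14 in Jak2 V617F and -0.11 in the double mutant. In the double mutant over Jak2 V617F its median was -0.34, with 2 of 20 above 0 (29% of all genes) and 3 of 20 at least 1.5-fold lower (14.9%). The 39 genes had 0.07 there, and the further replication genes -0.11. In Jak2 V617F over control the further replication genes had a median of 0.11. There 0 of 44 were 1.5-fold higher (1.02% of all genes) and 0 lower (1.37%).

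The G2 and M phase genes had lower ratios than the replication genes in the double mutant. Of the 23 on this list, all measured, the median log2 ratio was 0.09 in Ikk2-CA over control with 19 above 0, and 0.02 in Jak2 V617F over control with 14 above 0. In the double mutant over control it was -0.13 with 6 of 23 above 0, near the 26.9% of all genes above 0, and relative to the median gene these genes lay at 0.11 with 17 of 23 above it. The replication genes lay at 0.33 relative to the median gene in the same comparison. In the double mutant over Ikk2-CA the G2 and M genes had a median of -0.29 with 1 of 23 above 0 (54.7% of all genes), where the replication genes had 0.08. By marker gate, described below, the G2 and M sum was higher in the double mutant in the stem gate (1317 against 1026 CPM). The same held in the lymphoid-primed (1930 against 1680) and granulocyte-monocyte gates (2259 against 2162) and in ungated cells (1993 against 1951). It was lower in the megakaryocyte gate (2649 against 2956) and some smaller gates. The B cell gate, highest in these genes, held 13.7% of Ikk2-CA and 0.957% of double mutant cells. The part of makeup was not tested. Mki67, the proliferation antigen, measured 217.4 CPM in Ikk2-CA and 167.5 in the double mutant, and Cenpa, the centromere histone, 164.9 and 123.3 CPM. Summed, the G2 and M list held 2220 CPM in control, 2485 in Ikk2-CA, 2261 in Jak2 V617F and 2083 in the double mutant. Which library was lowest depended on the scaling: with TMM factors, which adjust each library total so that most genes balance, the sums were 2035, 2700, 2082 and 2270 CPM, with control the lowest. The replication sums were 2909, 3556, 3060 and 3738 CPM with these factors, with control the lowest and the double mutant the highest as with library totals.

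Counts per cell were compared at 1 depth, each cell with at least 5000 UMIs being thinned at random to 5000. This used 7217 control, 9460 Ikk2-CA, 12795 Jak2 V617F and 5122 double mutant cells and left out 838, 405, 1361 and 146 shallower ones. The median thinned cell held 10 replication UMIs in control (quartiles 5 and 21), 13 in Ikk2-CA (6 and 23), 13 in Jak2 V617F (6 and 22) and 14 in the double mutant (7 and 23). The control median was the lowest, whereas the upper quartiles differed by 2 UMIs at most. Thinned to 8000 UMIs, which kept 5932, 9025, 9583 and 5040 cells, the medians were 20, 22, 27 and 24, so control stayed the lowest but Jak2 V617F and not the double mutant was the highest. Without thinning the medians were 19, 50, 30 and 78 UMIs, in the order of the libraries' depth. Cells with 0 replication UMIs made up 0.845% of thinned control cells, 1.501% of Ikk2-CA, 0.539% of Jak2 V617F and 0.644% of double mutant cells.

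**Figure D2:**
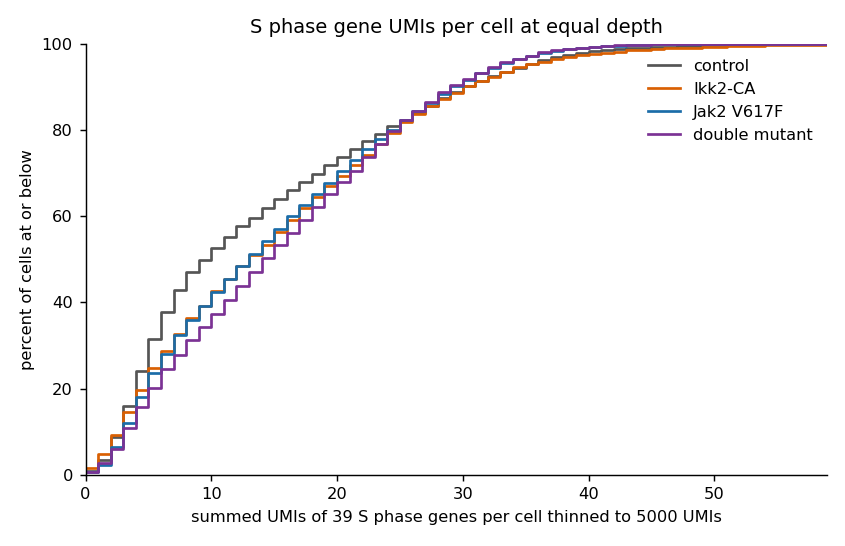
Cumulative percent of cells by their summed UMIs of the 39 genes, after each cell was thinned to 5000 UMIs, 1 line per library. At 0, 1 and 2 UMIs the Ikk2-CA line is the highest (1.501% against 0.845% in control at 0). From 3 to 25 UMIs the control line is the highest (31.5% against 20.1% to 24.7% at 5). The medians are 10, 13, 13 and 14 UMIs.

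The share of thinned cells with at least 1 UMI was above the control share for 31 of 39 genes in Ikk2-CA, 34 in Jak2 V617F and 37 in the double mutant, and the double mutant had the highest share for 21. How many of all genes did so at this depth was not counted, so these counts do not set the replication genes apart. Rrm2 was found in 16.4% of control cells (Clopper-Pearson 15.6 to 17.3), 27.3% (26.4 to 28.2) of Ikk2-CA, 17.9% (17.2 to 18.5) of Jak2 V617F and 21.4% (20.3 to 22.6) of double mutant cells. Tyms was found in 27.1% (26.1 to 28.1), 37.6% (36.6 to 38.6), 32.0% (31.2 to 32.8) and 38.5% (37.1 to 39.8). Both shares were highest in libraries with the Ikk2-CA allele. Mcm10 was found in 6.80% (6.23 to 7.41), 8.40% (7.85 to 8.98), 10.4% (9.89 to 10.95) and 8.65% (7.89 to 9.45), highest in Jak2 V617F as in CPM. Because free RNA in droplets can also give a UMI, a share is not the share of cells that express a gene.

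Cells were then sorted into classes by cell cycle genes outside the group. Thinned cells were divided by their summed UMIs of the 23 G2 and M phase genes into classes of 0, 1 to 3, 4 to 9, and 10 or more. The last class held 22.4% of control cells, 32.9% of Ikk2-CA, 28.01% of Jak2 V617F and 27.1% of double mutant cells. From the lowest to the highest class the summed replication level was 1906, 2652, 4991 and 3625 CPM in control, 1716, 2845, 4644 and 3557 CPM in Ikk2-CA, 2146, 2951, 4774 and 3450 CPM in Jak2 V617F, and 2197, 3348, 4721 and 3232 CPM in the double mutant. In all 4 libraries the level was thus highest in the class of 4 to 9 and lower again where G2 and M transcripts were most abundant. The double mutant had the highest level of the 4 in the classes of 0 and of 1 to 3 and the lowest in the class of 10 or more. Depth moved with the class: the median control cell held 9715 UMIs in the class of 0 and 19644 in that of 10 or more.

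The members differed in how their levels lay across these classes, which are not a measure of time. The classes also differed in cell makeup: the class of 0 held 29.5% of stem-gated and 3.10% of B-cell-gated control cells, by the gates described below. In the class of 4 to 9, 37 of 39 genes were at their highest in control, 35 in Ikk2-CA and 38 in each of the other libraries. The share of all genes highest in that class was not counted. Ung lay lowest in the last class relative to its peak: it measured 124.8 CPM in the class of 4 to 9 and 18.1 in the class of 10 or more in control, a 6.90-fold difference, against 5.82-fold in Ikk2-CA, 5.56-fold in Jak2 V617F and 6.94-fold in the double mutant. E2f1 (67.2 and 25.5 CPM in control) and Cdc6 (48.8 and 25.03 CPM) also lay low in the last class. Rrm1 was the exception in all 4 libraries, at 155.5 and 184.8 CPM in control. Rrm2 and Tyms were highest in the last class in Ikk2-CA alone (161.7 and 172.6 CPM for Rrm2, 216.0 and 239.6 CPM for Tyms). In the double mutant Rrm2 measured 148.4 and 91.0 CPM in these classes. From the class of 0 to that of 10 or more Rrm2 differed 15.1-fold in control, 14.2-fold in Ikk2-CA, 8.28-fold in Jak2 V617F and 6.88-fold in the double mutant, so the libraries with Jak2 V617F had the smaller span.

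**Figure D3:**
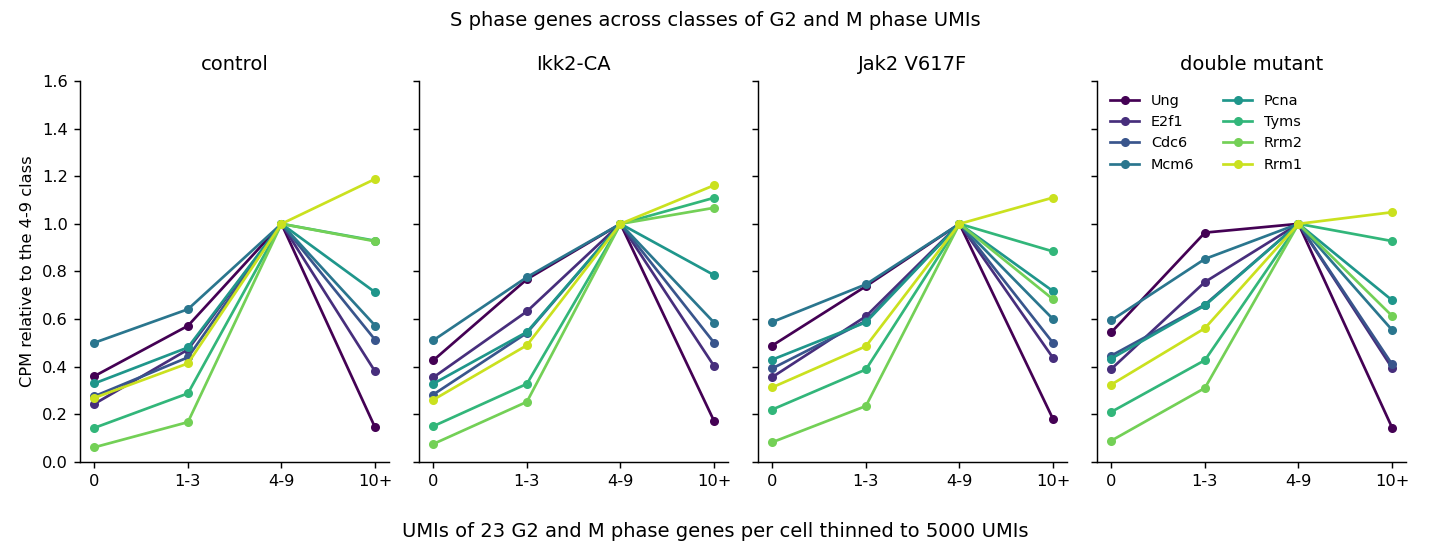
CPM of 8 genes in 4 classes of cells set by their UMIs of 23 G2 and M phase genes, each relative to the gene's CPM in the class of 4 to 9, 1 panel per library. Ung and E2f1 are low in the last class in every panel, Rrm1 is above 1 there in every panel, and Rrm2 and Tyms exceed 1 there in Ikk2-CA.

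Across marker gates the replication genes were lowest in stem-marked cells and highest in B-cell-marked ones. A thinned cell entered a gate when it held at least 3 distinct markers of 1 cell type and more than of any other, and none of the 39 genes is a marker. Between 40.1% and 60.7% of cells met no gate. In control the summed level was 2148 CPM in the stem gate (1108 cells), 2795 in the lymphoid-primed gate (1104 cells), 3572 in the granulocyte-monocyte gate (873 cells), 4204 in the megakaryocyte gate (147 cells) and 5457 in the B cell gate (129 cells), against 3141 in ungated cells. In every library the stem gate was the lowest of the gates drawn in the plot of levels by gate and the B cell gate the highest, although it held only 62 Jak2 V617F and 49 double mutant cells. The B cell gate held 13.7% of Ikk2-CA cells against 1.79% of control cells, and the stem gate 4.29% against 15.4%. The dendritic genes Xcr1 and Clec9a were among the 10 leading genes of the monocyte gate, so it is called only by its markers. Neutrophil, mast cell, T and NK cell and stromal gates held 98, 58, 45 and 2 cells in all and are not described.

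**Figure D4:**
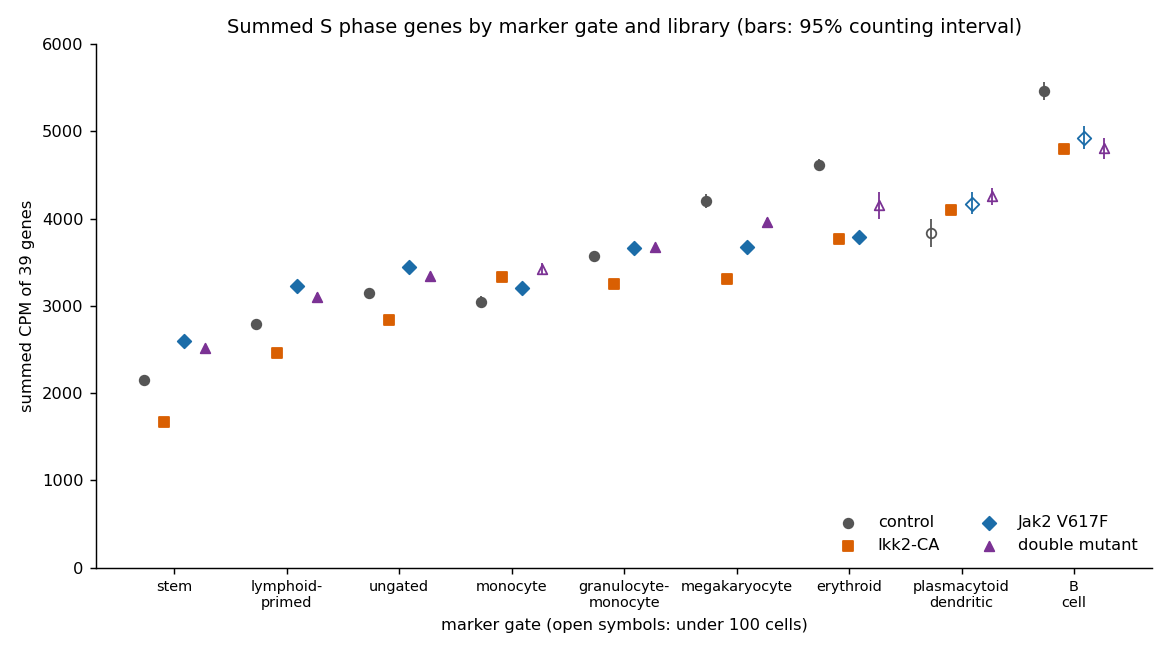
Summed CPM of the 39 genes by marker gate, with 1 symbol per library and bars for the 95% counting interval (open symbols mark fewer than 100 cells). The stem gate is lowest, from 1668 to 2593 CPM, and the B cell gate highest, from 4791 to 5457 CPM.

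Within the stem gate the libraries parted more than in the whole. The summed level was 2148 CPM (2121 to 2175) in control, 1668 (1633 to 1704) in Ikk2-CA, 2593 (2571 to 2614) in Jak2 V617F and 2514 CPM in the double mutant. Ikk2-CA was thus the lowest, at 0.777 times control (0.757 to 0.796), and both libraries with Jak2 V617F were the highest, at 1.21 (1.19 to 1.23) and 1.17 (1.15 to 1.19) times control. The double mutant stood at 1.51 times Ikk2-CA (1.47 to 1.55) and at 0.970 times Jak2 V617F (0.953 to 0.986). Counted by gene, 6 of 35 replication genes lay above 0 in Ikk2-CA over control (31.2% of all genes in this gate), 35 of 36 in Jak2 V617F over control (49.5%), 34 of 36 in the double mutant over control (29.6%), 36 of 36 in the double mutant over Ikk2-CA (46.8%) and 13 of 36 in the double mutant over Jak2 V617F (30.8%). The G2 and M genes in this gate were also lowest in Ikk2-CA and highest in Jak2 V617F, at 1324 CPM in control, 1026 in Ikk2-CA, 1691 in Jak2 V617F and 1317 in the double mutant.

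Rrm1, Rrm2 and Mcm7 were likewise lowest in Ikk2-CA in the stem gate, beyond counting error against control. Rrm1 measured 75.9 CPM in control, 44.9 in Ikk2-CA, 101.7 in Jak2 V617F and 88.5 in the double mutant. Rrm2, which was highest in Ikk2-CA over all cells, was lowest there in this gate, with 28.2, 19.5, 36.1 and 44.7 CPM. Mcm7 measured 142.0 CPM in control and 86.7 in Ikk2-CA, but 150.8 and 145.9 in Jak2 V617F and the double mutant. The ratios of the double mutant over Ikk2-CA were 1.97 (1.69 to 2.31) for Rrm1, 2.30 (1.83 to 2.91) for Rrm2, 1.68 (1.504 to 1.88) for Mcm7 and 1.85 (1.62 to 2.12) for Tyms, which measured 63.9, 58.6, 87.1 and 108.4 CPM. Mcm10 was again highest in Jak2 V617F, with 11.3 CPM in control, 11.1 in Ikk2-CA, 20.4 in Jak2 V617F and 12.1 in the double mutant.

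The stem gate itself differed between libraries. It held 1108 control, 406 Ikk2-CA, 1998 Jak2 V617F and 414 double mutant cells, of which 636, 238, 1276 and 254 held just the 3 markers needed. All 11 stem markers had UMIs in each library's gated cells, and their summed level there was 1033 CPM in control, 848 in Ikk2-CA, 889 in Jak2 V617F and 730 in the double mutant. Over all cells these markers summed to 375.5, 109.6, 368.3 and 183.5 CPM. The part that the makeup of the gate has in the difference was not tested. With at least 2 markers in place of 3 the Ikk2-CA ratio to control was 0.826, and with at least 4 it was 0.751.

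The other gates followed the stem gate less closely. In lymphoid-primed cells Ikk2-CA stood at 0.879 (0.864 to 0.893) times control, with 8 of 36 replication genes above 0 (27.7% of all genes), Jak2 V617F at 1.15 (1.14 to 1.17), with 34 of 37 (46.1%), and the double mutant at 1.11 (1.09 to 1.13), with 32 of 37 (28.6%). In the granulocyte-monocyte gate the ratios to control were 0.909, 1.02 and 1.03, and in ungated cells 0.904, 1.10 and 1.07. The megakaryocyte gate was below control in all 3 mutants, at 0.787 (0.769 to 0.805), 0.874 (0.851 to 0.896) and 0.942 (0.921 to 0.964). There Ccne2 measured 30.3 CPM in control and 12.4 in Ikk2-CA. In the erythroid gate the ratios were 0.817 for Ikk2-CA and 0.821 for Jak2 V617F. Ikk2-CA lay below control in 7 of the 8 groups of cells compared, ungated cells included, the monocyte gate (1.09) being the exception, while over all cells Ikk2-CA stood above control. The median of all genes was also below 0 in each of the 8 groups, and the replication genes lay below it in 3 of them. These were the stem (median log2 ratio -0.40 against -0.15 for all genes), megakaryocyte (-0.31 against -0.19) and erythroid (-0.26 against -0.17) gates. In the granulocyte-monocyte gate (-0.12 against -0.19, 26 of 38 genes above the median gene) and in ungated cells (-0.14 against -0.26, 30 of 37 above) they lay above it.

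**Figure D5:**
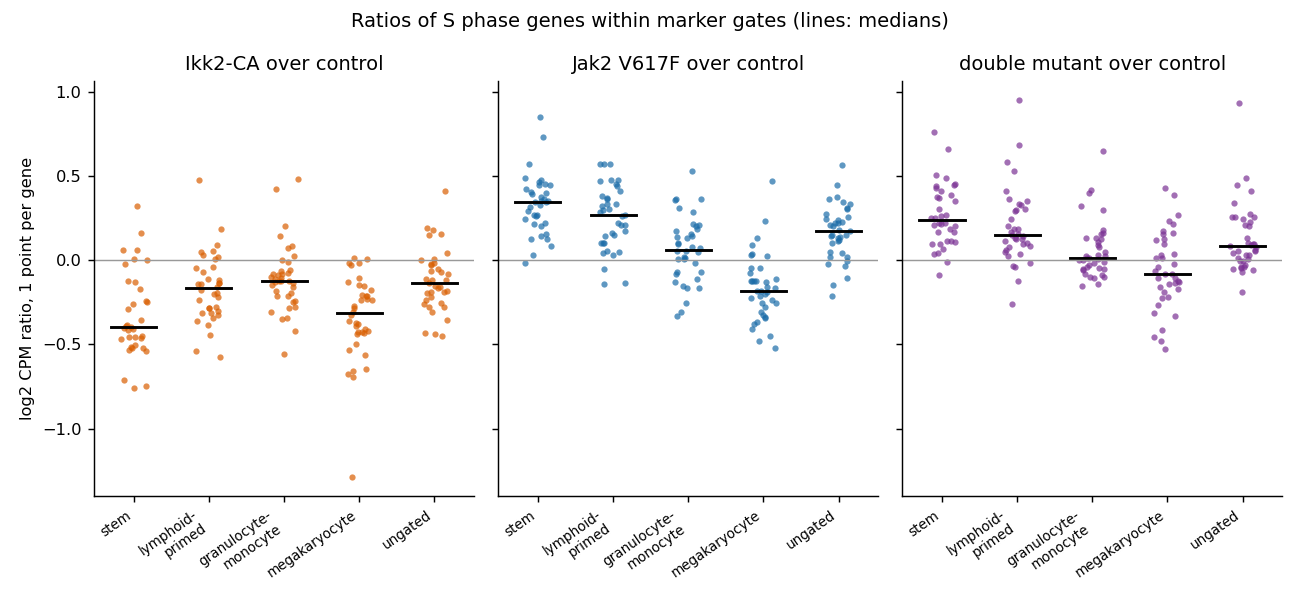
Log2 CPM ratio to control of each replication gene within 4 marker gates and ungated cells, with 1 panel per mutant and a line at each median. The Ikk2-CA medians lie below 0 in all 5 groups (-0.40 in the stem gate), where the median of all genes, not drawn, lies between -0.26 and -0.15, and the Jak2 V617F and double mutant medians are highest in the stem gate, at 0.35 and 0.24.

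Genes whose levels were most like the summed replication genes were sought over the 29 sums of a gate in a library with at least 100 cells. The highest Pearson correlations of log2 CPM among other genes with at least 20 CPM in every library were those of Rad51ap1 (0.972), a homologous recombination factor, Spc24 (0.968), a kinetochore subunit, Gmnn (0.964), the Cdt1 inhibitor geminin, and Rcc1 (0.962), the nucleotide exchange factor of Ran. The points share libraries and depth, so these values describe the data and carry no p-value. These 4 were lowest in the control library over all cells, Gmnn with 121.4 CPM in control, 143.6 in Ikk2-CA, 125.6 in Jak2 V617F and 140.9 in the double mutant.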

How the data were processed

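The authors deposited raw counts, whole UMIs of 32285 genes in each cell barcode, without normalisation. Per the file headers the matrices were written by Cell Ranger 4.0.0, whereas the series' design text names Cell Ranger 3.0.1; the submitters' processing notes name mm10 and Seurat 4.0.0. The members, gene lists and gate markers were chosen with earlier results of these data known.

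Barcodes with 500 to 7500 genes and under 10% mitochondrial UMIs were kept, as in the design text. UMIs were summed per library over 102362297 (control), 197836491 (Ikk2-CA), 182778171 (Jak2 V617F) and 142211877 (double mutant) UMIs and expressed as CPM. A comparison took the genes that reached 10 CPM in 1 of its libraries, with 1.5-fold as the call. Intervals are exact Poisson (levels), conditional binomial (ratios) and Clopper-Pearson (shares), at 95%. A gene with 0 counts was put at 3 counts. Replication genes among the 6 highest or lowest ratios of a comparison, up to 6 genes of each other list, and 5 alike genes could be named in full; 1 of the alike genes is not reported here. Doublets: Scrublet called 0, 208, 1 and 2 cells and did not work in 3 libraries, so no cell was removed in the main results; an alternative left out the highest scores. Alternatives also used TMM (edgeR 4.0.16) and median-of-ratios (DESeq2 1.42.0) factors, other filters and control gate shares. Scripts were tested on simulated data. Work was done in Python 3.11.15 with scanpy 1.11.5 and R 4.3.3. Gene models are GENCODE for GRCm38.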

Additional observations from a re-analysis of the deposited data

Results flagged for a closer look

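Some replication genes had opposite ratios for the same allele, depending on whether the other allele was present. Each had a log2 ratio of at least 0.15 in size in both settings, with counting intervals that left out 1, and none of these differences was tested, since each rests on 1 library per genotype. For the Jak2 V617F allele, Rpa2 stood at -0.17 over control but at 0.24 in the double mutant over Ikk2-CA. Ung stood at -0.23 and 0.15 in the same comparisons, and Uhrf1 went the other way, at 0.27 and -0.18. For the Ikk2-CA allele, Mcm10 stood at 0.16 over control but at -0.39 in the double mutant over Jak2 V617F, and Uhrf1 at 0.28 and -0.17. These last 2 depended on the scaling. With TMM factors Uhrf1 had the same sign in both settings (0.53 and 0.08) and Mcm10 stood at 0.40 and -0.14, the latter under 0.15 in size. Weighted by control gate shares both genes were below 0 in both settings, at -0.06 and -0.51 for Mcm10 and -0.05 and -0.23 for Uhrf1, and for the Jak2 V617F allele Uhrf1 was above 0 in both, at 0.34 and 0.16. Rpa2 and Ung kept opposite signs for the Jak2 V617F allele under TMM, median-of-ratios factors and gate weighting.

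The summed replication genes also had opposite ratios to control in different marker gates of the same library, and these differences were not tested either. Ikk2-CA stood at 0.777 times control in the stem gate and at 1.09 in the monocyte gate. Jak2 V617F stood at 1.21 in the stem gate and at 0.821 in the erythroid gate. The double mutant stood at 1.17 in the stem gate and at 0.942 in the megakaryocyte gate, where however 29 of 38 replication genes lay above the median gene, which stood at a log2 ratio of -0.21.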

How the results depend on the processing

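No paired analysis was possible because each genotype has 1 library, and leaving out a library was not possible for the same reason. The median log2 ratios of the replication genes are given in the order Ikk2-CA, Jak2 V617F and double mutant over control, then double mutant over Ikk2-CA and over Jak2 V617F. They were 0.05, 0.08, 0.09, 0.08 and 0.07 with library totals.

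With TMM factors they were 0.29, 0.090 and 0.34 over control and 0.31 over Jak2 V617F. With median-of-ratios factors they were 0.32, 0.088, 0.41, 0.13 and 0.38. The genes 1.5-fold higher then numbered 4 (TMM) and 5 (median-of-ratios) in Ikk2-CA, 3 and 6 in the double mutant over control, and 2 and 7 over Jak2 V617F, and the departure from additivity was -0.019 with median-of-ratios factors. The share of all genes past 1.5-fold was not counted under these factors. Relative to the median gene, 4, 3 and 2 of 38 genes were 1.5-fold higher in these comparisons (7.01, 6 and 3.94% of all genes). Of 39 genes, 26 kept their sign under TMM in Ikk2-CA over control and 39 in Jak2 V617F over control, and 21 and 37 did so under gate weighting. Taking the mean over cells gave 0.12, 0.066, 0.16, 0.079 and 0.16, with 4, 1 and 1 genes 1.5-fold higher in Ikk2-CA, in the double mutant over control and over Jak2 V617F, and 1 lower over Ikk2-CA. For the mean over cells, and for the gate weighting, cell sets and CPM cut below, the share of all genes was not counted.

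Weighting the gates by control shares gave -0.14, 0.12, 0.053, 0.23 and 0.012, with 0 genes 1.5-fold higher in Ikk2-CA and 1 in the double mutant over Ikk2-CA. The Ikk2-CA median thus fell on the other side of 0 under this weighting. Cells with no Xist UMI gave 0.00284 (Ikk2-CA), 0.097 (Jak2 V617F), 0.098 (over Ikk2-CA) and 0.082 (over Jak2 V617F), with 1 gene 1.5-fold higher in the double mutant over control. Without the highest doublet scores the values were 0.031 (Ikk2-CA), 0.0780 (over Ikk2-CA) and 0.0782 (over Jak2 V617F), and with all deposited barcodes 0.064 (Ikk2-CA) and 0.093 (Jak2 V617F). With at least 50 CPM they were 0.0834 (Ikk2-CA), 0.0828 (double mutant over control) and 0.097 (over Ikk2-CA), with 0 genes 1.5-fold higher in Ikk2-CA.

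With a ratio of 5 to 4 as the call the genes higher were 5, 3, 3, 2 and 3 (7.72, 4.63, 6.88, 7.91 and 5.09% of all genes). Lower were 2 in the double mutant over Ikk2-CA (9.6% of all genes) and 2 over Jak2 V617F (39.6%). At 2-fold 0 were higher in Ikk2-CA (2.14%). Per 10000 UMIs the mean thinned cell held 27.2 replication UMIs in control, 30.3 in Ikk2-CA, 29.6 in Jak2 V617F and 30.9 in the double mutant. With cells thinned to 8000 UMIs these were 30.2, 30.9, 35.4 and 31.1, so Jak2 V617F and not the double mutant was the highest, and at 3000 UMIs 27.04, 29.98, 28.04 and 30.8. In the lymphoid-primed gate with at least 4 markers the double mutant stood at 0.944 times control (1.11 with 3). Of the values for single genes and gates, 618 moved by more than their counting interval and 787 did not. Of the medians, counts of genes, departures from additivity and means per cell, 59 moved and 92 did not. The limit there was based on counting error, or on a 1.5-fold change for counts.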
